A study of Mus musculus with 24 samples.

Results

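Zinc, iron, copper and manganese enter and leave intestinal cells through membrane transporters and are stored there on binding proteins. The genes of this machinery were chosen by symbol, as every Slc30a, Slc39a, Slc11a or Slc31a followed by a number, plus Slc40a1, Mt1, Mt2, Fth1, Ftl1, Tfrc, Heph and Cybrd1. This rule took 36 of the 54146 genes in the count tables, of which 14 were Slc39a and 10 were Slc30a genes.

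The material was organoids of the mouse small intestine, with 3 libraries per group and 4 groups in each of 2 experiments. The genotype experiment asked what the loss of the Mediator kinases CDK8 and CDK19 does to gene expression, and compared WT, CDK8-KO, CDK19-KO and Double-KO organoids after 7 days with 600 nM 4-hydroxytamoxifen in poly(A) libraries. The Senexin experiment gave WT organoids 10 µM Senexin B (SnxB), an inhibitor of both kinases, or its solvent DMSO for 16h or 24h, in libraries of total RNA depleted of ribosomal RNA. Tamoxifen is in the extraction text of its labels too, and whether those organoids received it cannot be told.

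By the methods, Cdk8 carried lox sites around exon 2 and was cut by a tamoxifen-activated Cre driven by the Villin promoter, which is active in epithelial cells. Cdk19 was edited with a lentiviral CRISPR guide to exon 1, followed by puromycin and expansion from single picked organoids. The labels do not say which edited clone a library came from. Reads counted on genes ranged from 14636861 to 15473180 per genotype library and from 27075937 to 28405118 per Senexin library. Values are normalised counts, scaled by edgeR's TMM factors within an experiment, and are listed in the order of replicates 1, 2 and 3. The methods call the libraries of a group biological triplicates, and p-values measure the spread between these samples. Levels were not compared between the 2 experiments, which were normalised separately.

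The targeted genes were read first. Normalised counts of Cdk8 were 635, 646 and 535 in WT, 685, 857 and 634 in CDK8-KO, 694, 694 and 726 in libraries labelled CDK19-KO and 707, 659 and 645 in those labelled Double-KO. No knockout group was lower than WT, and counts over the whole gene cannot show the loss of exon 2, so they do not check that label. Normalised counts of Cdk19 were 711, 749 and 726 in WT, 702, 646 and 582 in CDK8-KO, 729.5, 420.1 and 423 in libraries labelled CDK19-KO and 403, 355 and 773 in those labelled Double-KO. Replicates 2 and 3 labelled CDK19-KO and replicates 1 and 2 labelled Double-KO were low, whereas CDK19-KO replicate 1 and Double-KO replicate 3 had the WT level. The methods report a deletion at the guide's site by sequencing, a loss of Cdk19 mRNA by qPCR and of the protein by Western blotting, without naming libraries. Whether these 2 libraries lack the edit, carry one that leaves RNA in place or are labelled wrongly cannot be told apart. They were kept, all groups are named by their labels, and results are also given without them. Pairs of libraries were also compared by their median squared difference over genes, relative to sampling alone. It was 5.33, 5.16 and 7.62 from CDK19-KO replicate 1 to WT replicates 1, 2 and 3. To CDK19-KO replicates 2 and 3 it was 8.3 and 8.94. From CDK8-KO replicate 3 it was 10.6, 4.61 and 5.63 to Double-KO replicates 1, 2 and 3. To CDK8-KO replicates 1 and 2 it was 7.63 and 11.8. Whether CDK8-KO replicate 3 is labelled rightly was not tested. With DMSO Cdk8 had 1595, 1902 and 2102 at 16h and 1714, 1826 and 1919 at 24h, against 1824, 2035 and 1979 at 16h and 1653, 1621 and 1833 at 24h with SnxB. With DMSO Cdk19 had 1146, 1218 and 1126 at 16h and 1561, 1359.9 and 1484 at 24h, against 1256, 1189 and 1249 at 16h and 1401, 1127 and 1174 at 24h with SnxB. The inhibitor acts on the proteins, and Cdk8 was not called at either time, but Cdk19 fell with SnxB at 24h (log2 fold change -0.25, SE 0.0833, edgeR adjusted p = 0.0375), although the groups overlapped.

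The labels name intestinal organoids, but those of the genotype libraries also give 4T1, a mouse mammary carcinoma line, as the cell type. Normalised counts summed over 5 markers of intestinal epithelium (Vil1, Cdx1, Cdx2, Cdh1 and Epcam) ranged from 61040.2 to 71835 in the genotype libraries. In the Senexin libraries they ranged from 97741 to 110483. Summed over 4 mammary markers (Krt14, Krt5, Csn2 and Wap) they ranged from 0 to 13.1 and from 0 to 9.14, with Csn2 at 0 in all 24 libraries. Cdh1 and Epcam, the most abundant of these, are not particular to intestine, but Vil1 and Cdx2 are largely intestinal, and they ranged from 11239 to 20269 and from 3081 to 4522 in the genotype libraries. The markers of the tissue label were thus present. Csn2 and Wap are milk genes and Krt14 and Krt5 are keratins, and no values of the 4T1 line were at hand, so that label was not tested.

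As background, Slc39a proteins move zinc into the cytosol, Slc30a proteins move it out or into organelles, and metallothioneins hold zinc and copper under the control of the zinc-sensing factor MTF1. In the duodenal enterocyte CYBRD1 reduces dietary iron, SLC11A2 carries it in, ferritin stores it and SLC40A1 with the oxidase HEPH releases it to blood. Iron-regulatory proteins, made from Aco1 and Ireb2, read cellular iron and set the stability or translation of several of these messages.

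Levels per length span several orders of magnitude. On the scale of reads per kilobase of exon, scaled to library size (RPKM, mean ± SD, n = 3), the highest in WT were Mt2 at 506 ± 88.7, Fth1 at 399 ± 62.3, Mt1 at 349.9 ± 17.9 and Ftl1 at 69.5 ± 12.9. The zinc importer Slc39a5 came next at 65.8 ± 5.79, within the SD of Ftl1, then Tfrc at 48.4 ± 1.89 and the iron importer Slc11a2 at 36.3 ± 4.30, with the zinc importer Slc39a4 ninth at 31.6 ± 1.74. The lowest of the genes that were tested were Slc30a2 at 0.440 ± 0.215 and Slc39a2 at 0.185 ± 0.0277. In DMSO at 16h the same scale put Ftl1 first at 689.9 ± 80.5, then Fth1 at 387 ± 64.4, Mt1 at 242 ± 129, Mt2 at 198 ± 159 and Slc11a2 at 104 ± 12.5. The SD of Mt1 and Mt2 was large there because DMSO replicate 1 stood apart from the other 2 libraries.

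A total of 33 genes passed the filter on low counts in both experiments. Slc11a1, a metal exporter of phagosomes, had 0 to 2 counts per genotype library and 0 to 1 per Senexin library, Slc39a12 had 0 to 1 in each, and Slc30a8 had 0 in all 24. Of the tested genes, Slc39a7 shares 80.7% of its exon bases with an overlapping gene on the same strand, Gm20427, so reads on it were lost. Its 34 to 58 counts per genotype library and 27 to 57 per Senexin library, before scaling, understate it. The genotype counts carry no strand, so 73.5% of the exon bases of Mt2 cannot be told from its antisense gene Gm45774. The same holds for 26.5% of the exon bases of Ftl1 and Gm10252 on the other strand, which had 980, 972 and 1247 normalised counts in WT. Reads on Ftl1 and Fth1 that also match their processed pseudogenes were not counted, which makes the levels of ferritin uncertain.

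A gene was called when edgeR's quasi-likelihood test gave an adjusted p under 0.05 (Benjamini-Hochberg over all genes tested). Where the adjusted p of 1 alternative analysis is quoted for a gene in a comparison, the range over all of them stands beside the first such value, DESeq2's included. In CDK8-KO against WT 1 of 33 genes was called, Slc39a4, which was higher, where 5.15% of all 15602 genes were called. Libraries labelled CDK19-KO gave 0 calls against WT, as did all genes (0%). At an unadjusted p under 0.05 edgeR gave 4 of the 33 (10.8% of all genes), and DESeq2 called 0 (2.01% of all genes). Libraries labelled Double-KO gave 6 higher and 2 lower against WT, or 24.2% beside 17.3% of all genes. Against the libraries labelled CDK19-KO they gave 5 higher and 3 lower, or 24.2% beside 25.3%. Against CDK8-KO none passed (0.0256% of all genes), with 8 at an unadjusted p under 0.05 (15.5% of all genes). DESeq2 called 1 there, Heph (0.55, DESeq2 adjusted p = 0.0138, 0.00243 to 0.546 over all alternatives), and 2.64% of all genes. The test of whether the joint loss differed from the sum of the single losses called 0 with edgeR (0.0256% of all genes), with 5 at an unadjusted p under 0.05 (14.5% of all genes). DESeq2 called 2, Heph (0.71, DESeq2 adjusted p = 0.0255, 0.00553 to 0.297 over all alternatives) and Slc30a4 (0.53, DESeq2 adjusted p = 0.0204, 0.0204 to 0.316 over all alternatives), and 3.18% of all genes. Without CDK8-KO replicate 3 edgeR called 3 genes between libraries labelled Double-KO and CDK8-KO, namely Heph (0.76, edgeR adjusted p = 0.00243), Slc30a3 (-2.16, edgeR adjusted p = 0.0254, 0.0254 to 0.624 over all alternatives) and Slc39a4 (0.59, edgeR adjusted p = 0.0295, 0.0295 to 0.664 over all alternatives). In the test of the sum it then called 2, Heph (0.93, edgeR adjusted p = 0.00553) and Slc39a4 (0.95, edgeR adjusted p = 0.0297, 0.0248 to 0.396 over all alternatives). The share of all genes called without CDK8-KO replicate 3 is not given, and the 0.0256% above belongs to the fit with all libraries. Cybrd1 was called in neither comparison by edgeR with all libraries, the filter and no block. Its adjusted p over all alternatives ran from 0.00800 to 0.628 between libraries labelled Double-KO and CDK8-KO. In the test of the sum it ran from 0.0142 to 0.571. Against WT, leaving out 1 library lowered the count for libraries labelled Double-KO to 3 without WT replicate 1, 4 without WT replicate 2 or Double-KO replicate 1, and 5 without WT replicate 3 or Double-KO replicate 2. Against the libraries labelled CDK19-KO it was 5 without CDK19-KO replicate 2 or 3 or Double-KO replicate 1. The CDK8-KO count was 0 without any 1 of the WT libraries. The share of all genes called is not given for these fits. A lower count thus cannot be told from fewer calls over all genes.

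SnxB at 16h gave 1 higher and 5 lower genes of 33, or 18.2% beside 7.75% of the 15467 genes tested. At 24h it gave 1 higher and 13 lower, or 42.4% beside 27.5%. With the replicate number as a block within each time these counts were 11 at 16h, where 15.1% of all genes were called, and 19 at 24h, where 38% were. The SnxB effect at 24h against that at 16h differed for 0 genes with edgeR (0% of all genes), with 6 at an unadjusted p under 0.05 (12.9% of all genes). DESeq2 called 1 (0.472% of all genes), and edgeR with the block within each time called 4 (2.1% of all genes). With the replicate block not set within time edgeR called 1 (0.388% of all genes). Between DMSO at 24h and at 16h 5 genes were called, or 15.2% beside 11.1%. That count was 11 with the replicate block (21.2% of all genes), 8 with no filter (6.55%) and 1 in a fit of only these groups (2.57%). The 16h count was 13 without DMSO 16h replicate 1, 3 without DMSO 16h replicate 2 or SnxB 16h replicate 1, 2 without DMSO 16h replicate 3 or SnxB 16h replicate 3, and 1 without SnxB 16h replicate 2. The 24h count was 9 without SnxB 24h replicate 2. Between the DMSO groups it was 10 without DMSO 16h replicate 1, 3 without DMSO 24h replicate 3, and 1 without DMSO 16h replicate 3 or DMSO 24h replicate 1. The share of all genes called in each of these fits is not given, so these counts cannot be read as particular to the metal genes.

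The median log2 fold change of the 33 genes was 0.10 in CDK8-KO and 0.17 in the libraries labelled Double-KO, where that of all genes was 0.01 and -0.01. In the latter comparison 24 values were above 0 and 9 below. With SnxB the median was -0.15 at 16h and -0.18 at 24h, where that of all genes was -0.01 and 0.00. There 25 and 24 of the 33 values were below 0. Comparisons with a shared control, such as the 3 genotypes against WT, are given side by side only.

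**Figure D1:**
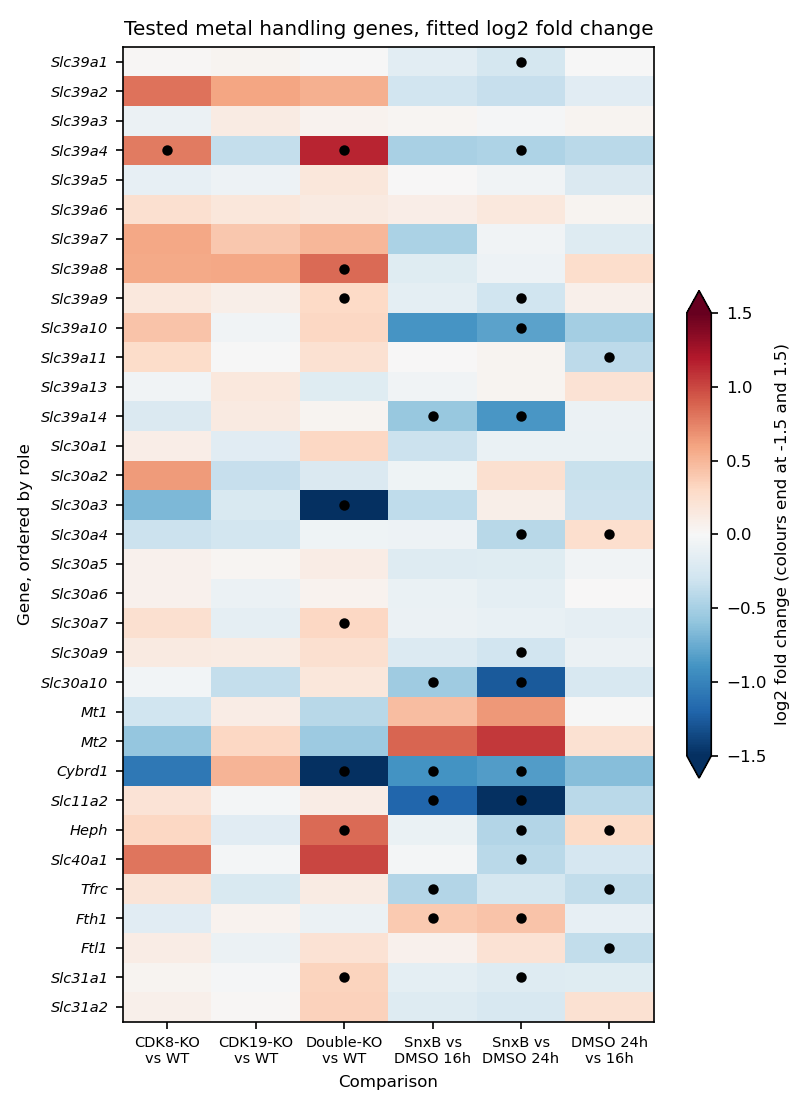
Fitted log2 fold changes (colour) of the 33 tested genes (rows, by role) in 6 comparisons (columns), with a black dot where edgeR's adjusted p was under 0.05. Slc39a4 and Heph were called higher in Double-KO against WT and lower with SnxB at 24h, and the dots in the SnxB columns lie on lower values except for Fth1.

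Of the zinc importers, Slc39a4 had the largest log2 fold change in libraries labelled Double-KO against WT, and it takes up dietary zinc at the brush border. Normalised counts of Slc39a4 were 1387, 1465 and 1548 in WT, 2279.6, 2042 and 3218 in CDK8-KO, 1380.4, 1034 and 1016 in libraries labelled CDK19-KO and 3309, 3393 and 3005 in those labelled Double-KO. All 3 libraries of CDK8-KO and all 3 labelled Double-KO lay above all WT libraries, and those labelled CDK19-KO lay below them. The rise was 2.21-fold in libraries labelled Double-KO against WT (log2 fold change 1.14, SE 0.161, edgeR adjusted p = 0.00122), and similar without Double-KO replicate 3 (1.19, edgeR adjusted p = 0.00237, 3.14e-09 to 0.00925 over all alternatives). Against libraries labelled CDK19-KO it was larger (log2 fold change 1.50, SE 0.163, edgeR adjusted p = 0.000159). In CDK8-KO the rise was 1.71-fold (log2 fold change 0.78, SE 0.160, edgeR adjusted p = 0.0186), a call that ended without WT replicate 1 (edgeR adjusted p = 0.0908), WT replicate 2 (edgeR adjusted p = 0.0761) and WT replicate 3 (edgeR adjusted p = 0.0549, 0.000132 to 0.0908 over all alternatives). With DMSO Slc39a4 had 3228, 4506 and 4808 at 16h and 2359, 3541 and 3573 at 24h, against 2990.4, 2922 and 3025 at 16h and 2522, 2212 and 2126 at 24h with SnxB. Replicate 1 was the lowest DMSO library at both times, and at 24h it fell among the SnxB libraries, whereas the other DMSO libraries were above all of these. Slc39a4 fell at 24h (log2 fold change -0.47, SE 0.153, edgeR adjusted p = 0.0362), but not without any 1 of DMSO 24h replicates 2 and 3 and SnxB 24h replicates 2 and 3 (edgeR adjusted p from 0.110 to 0.133, 0.000541 to 0.133 over all alternatives). At 16h it was not called (log2 fold change -0.49, SE 0.153, edgeR adjusted p = 0.0660) but was when DMSO 16h replicate 1 was left out (-0.65, edgeR adjusted p = 0.00796, 0.000527 to 0.205 over all alternatives) or replicates were blocked (-0.47, edgeR adjusted p = 0.0355).

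Slc39a14 carries zinc, manganese and iron that is not bound to transferrin. With DMSO Slc39a14 had 8116, 7753 and 6839 at 16h and 8275, 6517 and 6553 at 24h, against 5239, 4985 and 5030.1 at 16h and 4262, 3638 and 3744 at 24h with SnxB. Every SnxB library was below every DMSO library of its time. It fell 1.49-fold at 16h (log2 fold change -0.57, SE 0.0966, edgeR adjusted p = 0.00233) and 1.83-fold at 24h (log2 fold change -0.87, SE 0.0972, edgeR adjusted p = 4.93e-05), and leaving out any 1 library ended neither call. Normalised counts of Slc39a14 were 3064, 3261 and 2455 in WT, 2205, 3256 and 2079.7 in CDK8-KO, 3147, 3016 and 3489 in libraries labelled CDK19-KO and 3947, 2776 and 2288 in those labelled Double-KO. Those groups overlapped and no genotype call was made (log2 fold change 0.04, SE 0.204, edgeR adjusted p = 0.920 in libraries labelled Double-KO).

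Slc39a8 imports zinc and manganese. Normalised counts of Slc39a8 were 1137, 1166 and 1194 in WT, 1422, 1181 and 2582 in CDK8-KO, 1354, 1957 and 1934 in libraries labelled CDK19-KO and 1732, 1838 and 2735 in those labelled Double-KO. WT libraries were close together, and all libraries labelled Double-KO lay above them, most of all replicate 3. The rise in libraries labelled Double-KO (log2 fold change 0.85, SE 0.262, edgeR adjusted p = 0.0435) was lost without any 1 of WT replicates 1, 2 and 3 and Double-KO replicates 2 and 3 (edgeR adjusted p from 0.0602 to 0.143, 0.000596 to 0.143 over all alternatives); without Double-KO replicate 3 the log2 fold change was 0.61. With DMSO Slc39a8 had 657, 1005 and 985 at 16h and 1016, 1055 and 1121 at 24h, against 797, 701 and 831 at 16h and 1076, 931 and 1025 at 24h with SnxB. DMSO 16h replicate 1 was below all 3 SnxB libraries of its time and the other 2 DMSO libraries were above them, and neither time was called (log2 fold change -0.07, SE 0.129, edgeR adjusted p = 0.703 at 24h). Without that library Slc39a8 fell at 16h (-0.36, edgeR adjusted p = 0.0161, 0.0161 to 0.808 over all alternatives).

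Slc39a9 is a zinc transporter of the secretory pathway and the cell surface. Normalised counts of Slc39a9 were 1451, 1574 and 1579.5 in WT, 1714, 1656 and 1755 in CDK8-KO, 1648, 1627 and 1637 in libraries labelled CDK19-KO and 1966, 1884 and 1825 in those labelled Double-KO. All libraries labelled Double-KO were above all others. The rise was small (log2 fold change 0.30, SE 0.0675, edgeR adjusted p = 0.0108) and was lost without WT replicate 1 (edgeR adjusted p = 0.0632, 0.000194 to 0.0713 over all alternatives), and against libraries labelled CDK19-KO (log2 fold change 0.21, SE 0.0674, edgeR adjusted p = 0.0401) the call was lost without any 1 of the 6 libraries (edgeR adjusted p from 0.0517 to 0.147, 0.0147 to 0.290 over all alternatives). With DMSO Slc39a9 had 3145, 3269 and 2975 at 16h and 3185, 3321 and 3357 at 24h, against 2711, 2873 and 2921 at 16h and 2609, 2724 and 2711 at 24h with SnxB. The SnxB libraries lay below the DMSO libraries at both times. It fell at 24h (log2 fold change -0.29, SE 0.0601, edgeR adjusted p = 0.00285) whichever library was left out.

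Slc39a1 and Slc39a10 import zinc at the plasma membrane. With DMSO Slc39a1 had 3608, 3196 and 3578 at 16h and 3577, 3443 and 3327 at 24h, against 3104, 2976 and 3186 at 16h and 2869.7, 2890.3 and 2889.9 at 24h with SnxB. All SnxB libraries were below the DMSO libraries of their time, and the fall was called at 24h (log2 fold change -0.26, SE 0.0630, edgeR adjusted p = 0.00814). Normalised counts of Slc39a1 were 961, 1009.6 and 1011 in WT, 993, 970.0 and 1066 in CDK8-KO, 1132, 931 and 995 in libraries labelled CDK19-KO and 964, 996 and 1007 in those labelled Double-KO. These values showed no separation, with a log2 fold change of -0.01 in libraries labelled Double-KO (edgeR adjusted p = 0.963). With DMSO Slc39a10 had 386, 895 and 944 at 16h and 370.3, 556 and 634 at 24h, against 357, 467 and 381 at 16h and 246, 334 and 317 at 24h with SnxB. DMSO replicate 1 was low at both times, near the SnxB libraries. Slc39a10 fell at 24h (log2 fold change -0.80, SE 0.277, edgeR adjusted p = 0.0452), a call lost without any 1 of DMSO 24h replicates 2 and 3 and SnxB 24h replicates 1, 2 and 3 (edgeR adjusted p from 0.0802 to 0.154, 0.000121 to 0.154 over all alternatives). At 16h it was not called (log2 fold change -0.89, SE 0.269, edgeR adjusted p = 0.0596), but was with replicates blocked (-0.82, edgeR adjusted p = 0.00413, 2.44e-05 to 0.202 over all alternatives) or without DMSO 16h replicate 1 (-1.20, edgeR adjusted p = 0.000965). Normalised counts of Slc39a10 were 232, 274 and 303 in WT, 364, 432 and 292 in CDK8-KO, 241, 261 and 278 in libraries labelled CDK19-KO and 303, 360.4 and 341 in those labelled Double-KO. The lowest library labelled Double-KO was level with the highest WT library, and no call was made (log2 fold change 0.31, SE 0.149, edgeR adjusted p = 0.173).

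**Figure D2:**
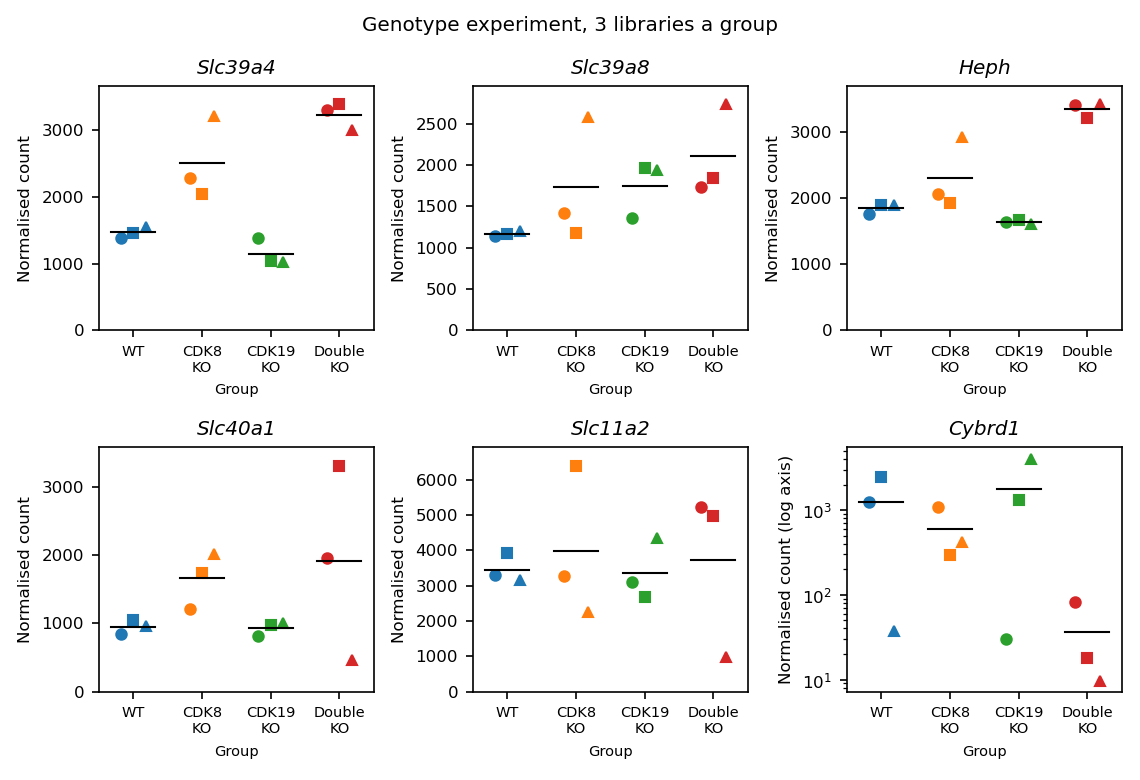
Normalised counts (vertical axis; log axis for Cybrd1) of 6 genes in the 12 genotype libraries, with circles, squares and triangles for replicates 1, 2 and 3 and a line at each group's mean. Slc39a4 and Heph were higher in all 3 Double-KO libraries than in any WT library, and Double-KO replicate 3 was the lowest library for Slc40a1 and Slc11a2.

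Among the Slc30a genes, Slc30a10, an exporter of manganese, changed most with SnxB. With DMSO Slc30a10 had 1113, 1139 and 1071 at 16h and 1156, 813 and 851 at 24h, against 811, 776 and 700.2 at 16h and 503, 325 and 353 at 24h with SnxB. All SnxB libraries lay below all DMSO libraries of their time. It fell 1.45-fold at 16h (log2 fold change -0.54, SE 0.147, edgeR adjusted p = 0.0383) and 2.39-fold at 24h (log2 fold change -1.26, SE 0.153, edgeR adjusted p = 9.08e-05). The call at 24h held whichever library was left out, and that at 16h was lost without any 1 of DMSO 16h replicates 2 and 3 and SnxB 16h replicates 1, 2 and 3 (edgeR adjusted p from 0.0648 to 0.138, 0.000118 to 0.138 over all alternatives). With replicates blocked the fall was larger at 24h than at 16h (difference in log2 fold change -0.72, edgeR adjusted p = 0.00922, 0.00922 to 0.613 over all alternatives), while without the block the difference had an edgeR adjusted p of 0.268. Normalised counts of Slc30a10 were 403, 388 and 151 in WT, 181, 575 and 160.3 in CDK8-KO, 293, 210.0 and 234 in libraries labelled CDK19-KO and 671, 243 and 149.5 in those labelled Double-KO. Single libraries of WT, CDK8-KO and Double-KO ranged widely, and the groups overlapped (log2 fold change 0.17, SE 0.574, edgeR adjusted p = 0.866 in libraries labelled Double-KO).

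Slc30a4 moves zinc into vesicles, and Slc30a9 is a zinc transporter of mitochondria. With DMSO Slc30a4 had 2126, 2214 and 2143 at 16h and 2661, 2396 and 2656 at 24h, against 2028, 2015 and 2084 at 16h and 1999, 1843 and 1937 at 24h with SnxB. The SnxB libraries at 24h were the lowest of all and the DMSO libraries at 24h the highest. Slc30a4 fell at 24h (log2 fold change -0.42, SE 0.0627, edgeR adjusted p = 0.000387) with no call at 16h (log2 fold change -0.08, SE 0.0627, edgeR adjusted p = 0.494), and it rose between DMSO at 16h and at 24h (log2 fold change 0.25, SE 0.0625, edgeR adjusted p = 0.0217), a call lost without DMSO 16h replicate 3 (edgeR adjusted p = 0.0805), DMSO 24h replicate 1 (edgeR adjusted p = 0.0897) and DMSO 24h replicate 3 (edgeR adjusted p = 0.0783, 0.00262 to 0.104 over all alternatives). The difference between the times (log2 fold change -0.33, SE 0.0886, edgeR adjusted p = 0.264) was called with replicates blocked (-0.33, edgeR adjusted p = 0.0467, 0.0467 to 0.613 over all alternatives) and by DESeq2 (-0.35, DESeq2 adjusted p = 0.0494). Normalised counts of Slc30a4 were 1771, 1755 and 1882 in WT, 1494, 1511 and 1311 in CDK8-KO, 1401, 1456 and 1624 in libraries labelled CDK19-KO and 1768, 1509 and 1875 in those labelled Double-KO. The CDK8-KO libraries lay below all WT libraries (log2 fold change -0.33, SE 0.0973, edgeR adjusted p = 0.0778), short of the threshold, but without CDK19-KO replicate 1 and Double-KO replicate 3 in the fit the value was -0.34, edgeR adjusted p = 0.0427, 0.0276 to 0.187 over all alternatives. In libraries labelled Double-KO the value was -0.07 (edgeR adjusted p = 0.660). With DMSO Slc30a9 had 1972, 2246 and 2044 at 16h and 1978, 1855 and 2054 at 24h, against 1754, 1866 and 1833 at 16h and 1679, 1491 and 1639 at 24h with SnxB. All SnxB libraries were below all DMSO libraries of their time, the fall was called at 24h (log2 fold change -0.29, SE 0.0719, edgeR adjusted p = 0.00864) and it was lost without SnxB 24h replicate 2 (edgeR adjusted p = 0.0523, 0.00132 to 0.0523 over all alternatives). At 16h the call was made with replicates blocked (-0.20, edgeR adjusted p = 0.0293, 0.0293 to 0.312 over all alternatives). Normalised counts of Slc30a9 were 989, 961 and 935 in WT, 1000.3, 1259.7 and 899 in CDK8-KO, 1009, 1061 and 1061 in libraries labelled CDK19-KO and 1353, 1035 and 1026 in those labelled Double-KO. All libraries labelled Double-KO were above WT without a call (log2 fold change 0.24, SE 0.130, edgeR adjusted p = 0.223).

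Slc30a7 brings zinc to enzymes of the secretory pathway such as alkaline phosphatase. Normalised counts of Slc30a7 were 826, 880.2 and 789 in WT, 879, 1042 and 1030.2 in CDK8-KO, 732, 792 and 751 in libraries labelled CDK19-KO and 1079, 1036 and 969 in those labelled Double-KO. Libraries labelled Double-KO were above all WT libraries and all labelled CDK19-KO, and overlapped CDK8-KO. The rise against WT (log2 fold change 0.31, SE 0.0882, edgeR adjusted p = 0.0337) was lost without any 1 of WT replicates 1, 2 and 3 and Double-KO replicates 1 and 2 (edgeR adjusted p from 0.0583 to 0.105, 0.0124 to 0.105 over all alternatives), whereas the call against libraries labelled CDK19-KO (log2 fold change 0.44, SE 0.0883, edgeR adjusted p = 0.00400) held without any 1 library. With DMSO Slc30a7 had 1142, 1449.6 and 1538 at 16h and 1202, 1305 and 1264 at 24h, against 1224, 1328 and 1349 at 16h and 1112, 1133 and 1237 at 24h with SnxB. The groups overlapped at both times, and at 24h the value was -0.12 (edgeR adjusted p = 0.397).

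Slc30a3, which fills synaptic vesicles with zinc in neurons, was near the detection limit in the genotype libraries. Normalised counts of Slc30a3 were 19.1, 19.5 and 24.0 in WT, 18.1, 18.4 and 2.88 in CDK8-KO, 22.2, 20.4 and 10.9 in libraries labelled CDK19-KO and 2.04, 4.92 and 4.85 in those labelled Double-KO. CDK8-KO replicate 3 was as low as the libraries labelled Double-KO, which held 2, 5 and 5 reads. Slc30a3 fell in libraries labelled Double-KO against WT (log2 fold change -2.36, SE 0.596, edgeR adjusted p = 0.0189), a call lost without WT replicate 3 (edgeR adjusted p = 0.0523) and Double-KO replicate 1 (edgeR adjusted p = 0.0622, 0.00222 to 0.0622 over all alternatives), and against libraries labelled CDK19-KO (log2 fold change -2.13, SE 0.602, edgeR adjusted p = 0.0219), a call lost without CDK19-KO replicate 2 (edgeR adjusted p = 0.0662) and Double-KO replicate 1 (edgeR adjusted p = 0.0717, 0.00450 to 0.0717 over all alternatives). With DMSO Slc30a3 had 122, 109 and 118 at 16h and 101, 93.6 and 84.8 at 24h, against 102, 91.4 and 75.6 at 16h and 99.6, 95.4 and 102 at 24h with SnxB. No call was made with SnxB (log2 fold change 0.09, SE 0.138, edgeR adjusted p = 0.675 at 24h).

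Slc30a1 exports zinc across the plasma membrane and is a known target of MTF1. Normalised counts of Slc30a1 were 338, 331 and 412 in WT, 296, 394 and 469 in CDK8-KO, 323, 303 and 335 in libraries labelled CDK19-KO and 528, 422 and 388 in those labelled Double-KO. Libraries labelled Double-KO overlapped WT (log2 fold change 0.31, SE 0.165, edgeR adjusted p = 0.221) and lay above all labelled CDK19-KO, short of a call (log2 fold change 0.48, SE 0.166, edgeR adjusted p = 0.0520). DESeq2 called that rise (0.48, DESeq2 adjusted p = 0.0383, 0.0332 to 0.204 over all alternatives), and so did edgeR without Double-KO replicate 3 (0.56, edgeR adjusted p = 0.0419) and with no filter (0.46, edgeR adjusted p = 0.0332). With DMSO Slc30a1 had 743, 680.4 and 635 at 16h and 747, 585 and 584 at 24h, against 591, 517 and 544 at 16h and 598, 554 and 632 at 24h with SnxB. At 16h all SnxB libraries were lower than all DMSO libraries (log2 fold change -0.32, SE 0.105, edgeR adjusted p = 0.0817), a difference called only with replicates blocked (-0.32, edgeR adjusted p = 0.0233, 0.0168 to 0.264 over all alternatives). At 24h the groups overlapped (log2 fold change -0.10, SE 0.105, edgeR adjusted p = 0.497).

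The metallothionein genes Mt1 and Mt2 were split among the DMSO libraries. With DMSO Mt1 had 13451, 5547 and 6015 at 16h and 13409, 5915 and 5589 at 24h, against 13066, 10526 and 10916 at 16h and 14219, 11801 and 13187 at 24h with SnxB. With DMSO Mt2 had 6219, 1697 and 1768 at 16h and 7127, 2149.6 and 2087 at 24h, against 6536, 5643 and 5604 at 16h and 8318, 7862 and 7591 at 24h with SnxB. DMSO replicate 1 was close to the SnxB libraries at both times, below all of them only for Mt2 at 24h, whereas DMSO replicates 2 and 3 were well below every SnxB library. Neither gene was called (for Mt2, log2 fold change 0.88, SE 0.474, edgeR adjusted p = 0.300 at 16h and log2 fold change 1.06, SE 0.474, edgeR adjusted p = 0.111 at 24h; for Mt1, log2 fold change 0.46, SE 0.327, edgeR adjusted p = 0.445 and log2 fold change 0.65, SE 0.328, edgeR adjusted p = 0.155). With replicates blocked, Mt2 rose at 16h (1.15, edgeR adjusted p = 0.0289, 0.00690 to 0.606 over all alternatives) and at 24h (1.32, edgeR adjusted p = 0.00591, 0.000187 to 0.299 over all alternatives), and Mt1 at 24h (0.77, edgeR adjusted p = 0.00753, 0.00171 to 0.399 over all alternatives). Without DMSO replicate 1 of that time, Mt2 rose at 16h (1.77, edgeR adjusted p = 0.0115) and at 24h (1.90, edgeR adjusted p = 0.00774). Mt1 then rose too, at 16h (0.99, edgeR adjusted p = 0.0350, 0.0350 to 0.769 over all alternatives) and at 24h (1.18, edgeR adjusted p = 0.0114).

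In the genotype experiment neither metallothionein was called against WT with all libraries, the filter and no block. Normalised counts of Mt1 were 6674, 6754 and 6139.7 in WT, 5034, 6839 and 4017 in CDK8-KO, 7923, 6887 and 6313 in libraries labelled CDK19-KO and 5777, 5686 and 3229 in those labelled Double-KO. Normalised counts of Mt2 were 4800.3, 5003 and 3562 in WT, 2879, 3546 and 2548 in CDK8-KO, 5637, 5949 and 4926 in libraries labelled CDK19-KO and 3466, 3621 and 2091 in those labelled Double-KO. Libraries labelled Double-KO were below all of WT for Mt1, those of CDK8-KO were below all of WT for Mt2, and Double-KO replicate 3 was the lowest of the 12 for both genes. Those labelled CDK19-KO overlapped WT for both. Mt2 fell in libraries labelled Double-KO against those labelled CDK19-KO (log2 fold change -0.85, SE 0.201, edgeR adjusted p = 0.00961), whichever library was left out, and was not called against WT (log2 fold change -0.54, SE 0.200, edgeR adjusted p = 0.0819). The latter fall was called with no filter (-0.55, edgeR adjusted p = 0.0114, 0.00994 to 0.242 over all alternatives) and with the replicate block (-0.56, edgeR adjusted p = 0.00994), and its log2 fold change was -0.33 without Double-KO replicate 3. Against libraries labelled CDK19-KO those 2 alternatives also called Mt1 lower (with no filter -0.54, edgeR adjusted p = 0.0146, 0.0146 to 0.420 over all alternatives). In CDK8-KO Mt2 was not called (log2 fold change -0.57, SE 0.200, edgeR adjusted p = 0.121), but it was without CDK19-KO replicate 1 and Double-KO replicate 3 in the fit (-0.59, edgeR adjusted p = 0.0391, 0.0125 to 0.307 over all alternatives). The antisense gene Gm45774 had 4413, 4451 and 3203 in WT and 3099, 3286 and 1823 in libraries labelled Double-KO, values close to those of Mt2, as counting without strand would give. In the stranded Senexin libraries it had 57.9, 48.8 and 44.8 with DMSO and 101, 54.8 and 75.6 with SnxB at 16h.

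The promoters of the neighbours Mt1 and Mt2 are shown beside that of Slc30a1, a choice made after values and windows were seen. Metal response elements, the sites of MTF1, share the core TGCACNC or TGCGCNC, searched on both strands. In RefSeq promoters of GRCm38.p6, 250 bases before to 50 after the start, 8444 of 32851 windows (25.7%) held at least 1 match and 2337 (7.11%) at least 2. The chosen genes had 36 windows for 29 of them, of which 16 (44.4%) held a match and 7 (19.4%) at least 2. Mt2 had 4 matches, a number or more that 170 of all windows (0.517%) held, Mt1, Slc30a4 and Slc30a10 had 3, and Slc30a1, Slc30a2 and Tfrc had 2. No entry was given for Slc11a2, Slc30a8, Slc39a14, Slc39a4, Slc39a6, Slc40a1 and Heph. The 250 bases before the start are printed 5′ to 3′ on the plus strand, with matches in capitals, for Mt1 at chr8:94178839-94179088, Mt2 at chr8:94172368-94172617 and Slc30a1 at chr1:191906531-191906780. The remaining matches of these windows reach into the 50 bases after the start, and a match describes letters only.
Mt1: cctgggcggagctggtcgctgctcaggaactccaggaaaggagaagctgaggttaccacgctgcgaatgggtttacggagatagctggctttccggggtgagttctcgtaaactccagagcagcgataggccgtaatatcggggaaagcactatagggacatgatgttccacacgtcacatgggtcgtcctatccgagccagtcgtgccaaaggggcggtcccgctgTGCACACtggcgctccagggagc
Mt2: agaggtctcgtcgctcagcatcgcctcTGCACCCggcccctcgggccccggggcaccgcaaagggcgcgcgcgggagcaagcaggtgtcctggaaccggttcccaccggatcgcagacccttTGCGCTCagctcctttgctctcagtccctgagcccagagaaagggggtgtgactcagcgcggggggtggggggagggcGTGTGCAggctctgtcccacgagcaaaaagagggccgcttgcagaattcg
Slc30a1: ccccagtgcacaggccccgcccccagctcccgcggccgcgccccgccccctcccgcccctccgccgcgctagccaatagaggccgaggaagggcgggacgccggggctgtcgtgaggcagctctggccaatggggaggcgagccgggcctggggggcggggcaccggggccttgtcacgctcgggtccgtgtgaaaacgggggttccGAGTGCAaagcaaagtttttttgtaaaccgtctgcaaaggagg

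The iron importer Slc11a2 had the lowest log2 fold change of the 33 genes with SnxB at 24h. With DMSO Slc11a2 had 20297, 18599.9 and 15927 at 16h and 18888, 10513 and 12021 at 24h, against 9197, 7425 and 7373 at 16h and 6709, 3066 and 3399 at 24h with SnxB. Every SnxB library was below every DMSO library of its time, and replicate 1 was the highest of each group. It fell 2.28-fold at 16h (log2 fold change -1.19, SE 0.257, edgeR adjusted p = 0.0110) and 3.14-fold at 24h (log2 fold change -1.65, SE 0.261, edgeR adjusted p = 0.000521). The 16h call was lost without SnxB 16h replicate 2 (edgeR adjusted p = 0.0568) and SnxB 16h replicate 3 (edgeR adjusted p = 0.0550, 1.68e-10 to 0.0568 over all alternatives), and the 24h call held without any 1 library. With replicates blocked the fall was larger at 24h than at 16h (-0.50, edgeR adjusted p = 0.0348, 0.0348 to 0.896 over all alternatives), which was not called without the block (-0.46, edgeR adjusted p = 0.628). Normalised counts of Slc11a2 were 3295, 3918 and 3149.7 in WT, 3285, 6398 and 2245 in CDK8-KO, 3097, 2681 and 4338 in libraries labelled CDK19-KO and 5231, 4965 and 982 in those labelled Double-KO. Replicates 1 and 2 labelled Double-KO were above all WT libraries and replicate 3 was the lowest of the 12. The comparison with WT was not called (log2 fold change 0.11, SE 0.496, edgeR adjusted p = 0.904; 0.56, edgeR adjusted p = 0.280, 0.280 to 0.976 over all alternatives without that replicate).

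Cybrd1, the ferric reductase of the brush border, varied widely between libraries of 1 genotype. Normalised counts of Cybrd1 were 1260.2, 2469 and 37.6 in WT, 1082, 292 and 421 in CDK8-KO, 30.2, 1298 and 4043 in libraries labelled CDK19-KO and 82.6, 17.7 and 9.71 in those labelled Double-KO. WT replicate 3 and CDK19-KO replicate 1 were far below the other libraries of their groups, and all libraries labelled Double-KO were low, of which replicate 1 overlapped WT. Cybrd1 fell in libraries labelled Double-KO against WT (log2 fold change -5.11, SE 1.60, edgeR adjusted p = 0.0456), a call lost without any 1 of WT replicates 1 and 2 and Double-KO replicates 1, 2 and 3 (edgeR adjusted p from 0.0740 to 0.136, 4.73e-05 to 0.136 over all alternatives), and against libraries labelled CDK19-KO (log2 fold change -5.62, SE 1.61, edgeR adjusted p = 0.0238), a call lost without CDK19-KO replicate 3 (edgeR adjusted p = 0.0841), Double-KO replicate 2 (edgeR adjusted p = 0.0781) and Double-KO replicate 3 (edgeR adjusted p = 0.0687, 5.85e-06 to 0.0841 over all alternatives). Without CDK19-KO replicate 1 and Double-KO replicate 3 in the fit the value against WT was -4.65, edgeR adjusted p = 0.0479. With DMSO Cybrd1 had 77.2, 79.1 and 91.6 at 16h and 53.3, 60.4 and 45.7 at 24h, against 42.1, 44.7 and 46.0 at 16h and 41.1, 20.3 and 27.4 at 24h with SnxB. Counts were low in this experiment, and each SnxB library was below each DMSO library of its time. It fell at 16h (log2 fold change -0.90, SE 0.204, edgeR adjusted p = 0.0142), a call lost without DMSO 16h replicate 3 (edgeR adjusted p = 0.0529), SnxB 16h replicate 1 (edgeR adjusted p = 0.0533) and SnxB 16h replicate 2 (edgeR adjusted p = 0.0565, 0.00268 to 0.0565 over all alternatives). The fall at 24h (log2 fold change -0.84, SE 0.224, edgeR adjusted p = 0.0131) was lost without DMSO 24h replicate 2 (edgeR adjusted p = 0.0505), SnxB 24h replicate 2 (edgeR adjusted p = 0.0662) and SnxB 24h replicate 3 (edgeR adjusted p = 0.0503, 0.00251 to 0.0662 over all alternatives).

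**Figure D3:**
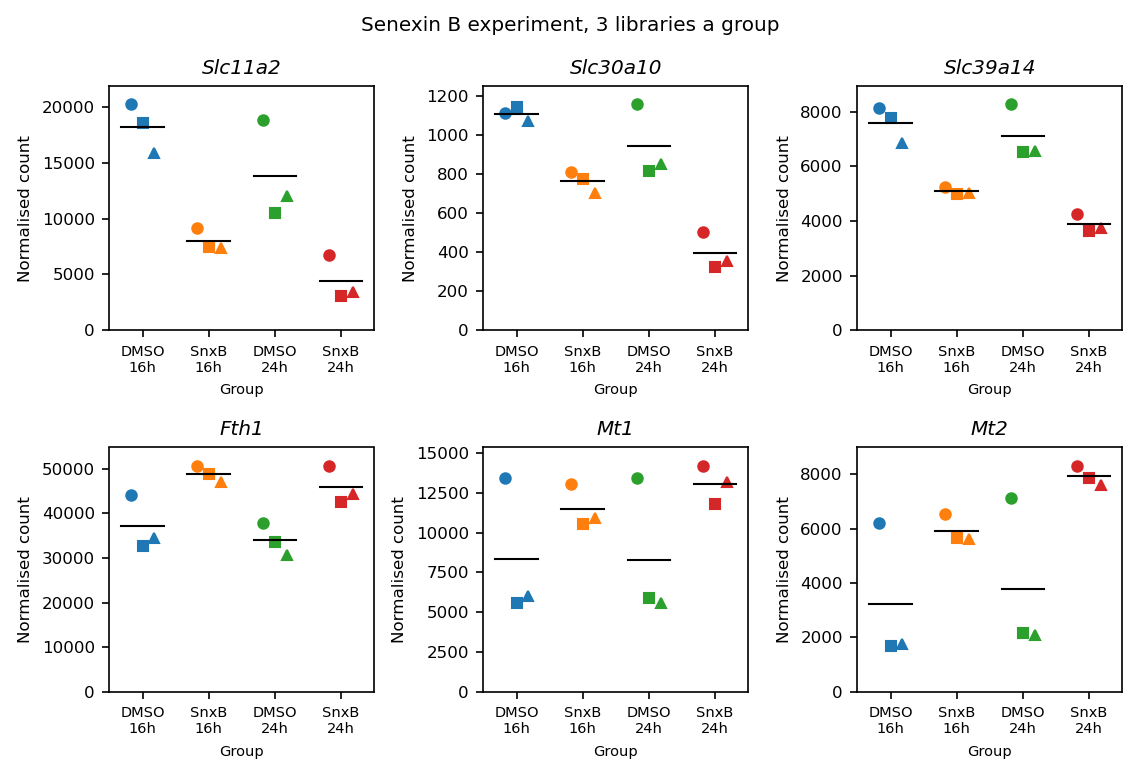
Normalised counts (vertical axis) of 6 genes in the 12 Senexin libraries, with circles, squares and triangles for replicates 1, 2 and 3 and a line at each group's mean. Slc11a2, Slc30a10 and Slc39a14 were lower and Fth1 higher in every SnxB library than in any DMSO library of the same time, and DMSO replicate 1 was high for Mt1 and Mt2.

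Iron leaves the cell through ferroportin, encoded by Slc40a1, with the ferroxidase HEPH beside it. Normalised counts of Heph were 1764, 1899 and 1891 in WT, 2055, 1919.6 and 2925 in CDK8-KO, 1643, 1671 and 1612 in libraries labelled CDK19-KO and 3416, 3206 and 3423 in those labelled Double-KO. All libraries labelled Double-KO were above all other libraries, and CDK8-KO replicate 3 came next. Heph rose 1.81-fold in libraries labelled Double-KO against WT (log2 fold change 0.85, SE 0.129, edgeR adjusted p = 0.00156) and 2.04-fold against libraries labelled CDK19-KO (log2 fold change 1.03, SE 0.129, edgeR adjusted p = 0.000331), with no call lost when any 1 library was left out. Without Double-KO replicate 3 the value against WT was 0.84, edgeR adjusted p = 0.00463, 1.33e-07 to 0.0117 over all alternatives. With DMSO Heph had 2539, 2597 and 2339 at 16h and 3188, 2919.7 and 3003 at 24h, against 2169, 2400.2 and 2414 at 16h and 2132, 2313 and 2251 at 24h with SnxB. DMSO at 24h was above every other group, and SnxB at 24h was below it in all libraries. Heph fell with SnxB at 24h (log2 fold change -0.44, SE 0.0685, edgeR adjusted p = 0.000455) and was not called at 16h (log2 fold change -0.10, SE 0.0686, edgeR adjusted p = 0.442). It rose in DMSO between 16h and 24h (log2 fold change 0.29, SE 0.0684, edgeR adjusted p = 0.0189), a call lost without DMSO 16h replicate 3 (edgeR adjusted p = 0.0899) and DMSO 24h replicate 1 (edgeR adjusted p = 0.0825, 0.00131 to 0.0899 over all alternatives).

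Slc40a1 itself depended on Double-KO replicate 3. Normalised counts of Slc40a1 were 849.8, 1049.7 and 955 in WT, 1214, 1735 and 2020.2 in CDK8-KO, 816, 977 and 1011 in libraries labelled CDK19-KO and 1951, 3309 and 460.2 in those labelled Double-KO. Replicates 1 and 2 labelled Double-KO were above all WT libraries and replicate 3 was the lowest of all 12. The gene was not called in libraries labelled Double-KO (log2 fold change 1.00, SE 0.470, edgeR adjusted p = 0.163), and without replicate 3 it rose against WT (1.46, edgeR adjusted p = 0.00268, 0.00268 to 0.641 over all alternatives) and against libraries labelled CDK19-KO (1.48, edgeR adjusted p = 0.00128, 0.00128 to 0.581 over all alternatives). All CDK8-KO libraries were above all WT libraries (log2 fold change 0.80, SE 0.469, edgeR adjusted p = 0.356), and the difference was called without CDK19-KO replicate 1 and Double-KO replicate 3 in the fit (0.79, edgeR adjusted p = 0.0441, 0.0402 to 0.576 over all alternatives). With DMSO Slc40a1 had 2116, 2385 and 2246 at 16h and 2055, 1724 and 1886 at 24h, against 2051, 2326 and 2213 at 16h and 1568, 1358 and 1354 at 24h with SnxB. At 16h the groups overlapped, and at 24h all SnxB libraries were lower. Slc40a1 fell at 24h (log2 fold change -0.40, SE 0.0851, edgeR adjusted p = 0.00349) whichever library was left out. With replicates blocked the difference between the times was called (-0.37, edgeR adjusted p = 0.0404, 0.0404 to 0.613 over all alternatives), and without the block it was not (edgeR adjusted p = 0.275).

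Tfrc, the transferrin receptor, takes up iron from the basolateral side. With DMSO Tfrc had 7022, 9271 and 9565 at 16h and 6958, 5943 and 7193 at 24h, against 6795, 6166 and 6147 at 16h and 5964, 5319 and 5436 at 24h with SnxB. At 16h all SnxB libraries were below all DMSO libraries, of which replicate 1 was the lowest, and at 24h the groups overlapped. Tfrc fell at 16h (log2 fold change -0.44, SE 0.107, edgeR adjusted p = 0.0218), a call lost without any 1 of DMSO 16h replicates 2 and 3 and SnxB 16h replicates 2 and 3 (edgeR adjusted p from 0.0828 to 0.0949, 0.000254 to 0.0949 over all alternatives). At 24h it was not called (log2 fold change -0.27, SE 0.107, edgeR adjusted p = 0.0792), but it was without DMSO 24h replicate 2 (-0.35, edgeR adjusted p = 0.0445, 0.0312 to 0.230 over all alternatives) or with replicates blocked (-0.26, edgeR adjusted p = 0.0453). Between the DMSO groups it fell with time (log2 fold change -0.36, SE 0.106, edgeR adjusted p = 0.0416), a call lost without any 1 of DMSO 16h replicates 2 and 3 and DMSO 24h replicates 1, 2 and 3 (edgeR adjusted p from 0.0560 to 0.177, 0.00251 to 0.177 over all alternatives). Normalised counts of Tfrc were 4288, 4630.0 and 4522 in WT, 4503, 6574 and 4323 in CDK8-KO, 3514, 3941 and 4019.8 in libraries labelled CDK19-KO and 5759.9, 6228 and 2612 in those labelled Double-KO. Double-KO replicate 3 was again the lowest library, and with it no genotype call was made (log2 fold change 0.12, SE 0.256, edgeR adjusted p = 0.785 against WT and log2 fold change 0.35, SE 0.256, edgeR adjusted p = 0.343 against libraries labelled CDK19-KO). Without it the value was 0.42, edgeR adjusted p = 0.0894, 0.0798 to 0.994 over all alternatives against WT, and Tfrc was called higher against libraries labelled CDK19-KO (0.64, edgeR adjusted p = 0.0131, 0.0131 to 0.768 over all alternatives), also without CDK19-KO replicate 1 as well (0.58, edgeR adjusted p = 0.0280).

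Ferritin heavy and light chains, from Fth1 and Ftl1, store iron. With DMSO Fth1 had 44188, 32759 and 34385 at 16h and 37817, 33682 and 30685 at 24h, against 50741, 48861 and 47011 at 16h and 50618, 42637 and 44352 at 24h with SnxB. All SnxB libraries were above all DMSO libraries of their time, and with all libraries, the filter and no block Fth1 was the only gene of the 33 called higher with SnxB. It rose 1.32-fold at 16h (log2 fold change 0.40, SE 0.109, edgeR adjusted p = 0.0391) and 1.35-fold at 24h (log2 fold change 0.43, SE 0.109, edgeR adjusted p = 0.0103). The 16h call was lost without any 1 of DMSO 16h replicates 2 and 3 and SnxB 16h replicates 1, 2 and 3 (edgeR adjusted p from 0.0791 to 0.139, 0.000514 to 0.139 over all alternatives), and the 24h call held without any 1 library. With DMSO Ftl1 had 25594, 22595 and 28566 at 16h and 18690.4, 20352 and 20169 at 24h, against 27082, 25865 and 27174 at 16h and 23858, 22994 and 21704 at 24h with SnxB. At 24h all SnxB libraries were above all DMSO libraries, without a call (log2 fold change 0.21, SE 0.0792, edgeR adjusted p = 0.0612), and with replicates blocked it rose (0.21, edgeR adjusted p = 0.0269, 0.00723 to 0.188 over all alternatives). Ftl1 fell in DMSO from 16h to 24h (log2 fold change -0.37, SE 0.0793, edgeR adjusted p = 0.0113), a call lost without DMSO 16h replicate 3 (edgeR adjusted p = 0.0598) and DMSO 24h replicate 1 (edgeR adjusted p = 0.0558, 0.000421 to 0.0638 over all alternatives). Normalised counts of Fth1 were 18643, 19081 and 24453 in WT, 18857, 19185 and 17220.2 in CDK8-KO, 18024, 22691 and 23681 in libraries labelled CDK19-KO and 20186, 24064 and 14175 in those labelled Double-KO. The groups overlapped, and the value in libraries labelled Double-KO was -0.09 (edgeR adjusted p = 0.771). Normalised counts of Ftl1 were 1258, 1232 and 1691 in WT, 1550.3, 1601 and 1363 in CDK8-KO, 1343, 1257 and 1345 in libraries labelled CDK19-KO and 1736, 1573 and 1531 in those labelled Double-KO. WT replicate 3 was as high as most knockout libraries, and without it the value in libraries labelled Double-KO passed (0.38, edgeR adjusted p = 0.0249, 0.0249 to 0.539 over all alternatives, against 0.21 and 0.242 with it).

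Copper enters through the product of Slc31a1. Normalised counts of Slc31a1 were 2167, 2285 and 2330.2 in WT, 2233, 2475 and 2256 in CDK8-KO, 2380.0, 2063 and 2249 in libraries labelled CDK19-KO and 3255, 2607 and 2668 in those labelled Double-KO. All libraries labelled Double-KO were above all others. It rose against WT (log2 fold change 0.33, SE 0.0968, edgeR adjusted p = 0.0356), a call lost without any 1 of WT replicates 1, 2 and 3 and Double-KO replicate 1 (edgeR adjusted p from 0.0572 to 0.129, 0.00810 to 0.129 over all alternatives), and against libraries labelled CDK19-KO (log2 fold change 0.35, SE 0.0968, edgeR adjusted p = 0.0198), a call lost without CDK19-KO replicate 2 (edgeR adjusted p = 0.106), CDK19-KO replicate 3 (edgeR adjusted p = 0.0696) and Double-KO replicate 1 (edgeR adjusted p = 0.0660, 0.00449 to 0.106 over all alternatives). With DMSO Slc31a1 had 4715, 5222 and 5469.9 at 16h and 4758, 4399 and 4448 at 24h, against 4628, 4441 and 4811 at 16h and 3994, 4025 and 3912 at 24h with SnxB. SnxB libraries were the lowest at 24h. The fall there was small (log2 fold change -0.19, SE 0.0659, edgeR adjusted p = 0.0458) and was lost without any 1 of the 6 libraries (edgeR adjusted p from 0.0647 to 0.155, 0.0238 to 0.155 over all alternatives). At 16h the call was made only without DMSO 16h replicate 1 (-0.21, edgeR adjusted p = 0.0413, 0.0413 to 0.467 over all alternatives).

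The other 11 tested genes were called in none of CDK8-KO or Double-KO against WT and SnxB against DMSO at 16h or 24h. They were Slc30a2, Slc30a5, Slc30a6, Slc31a2, Slc39a2, Slc39a3, Slc39a5, Slc39a6, Slc39a7, Slc39a11 and Slc39a13. Their log2 fold changes lay between -0.22 and 0.53 in libraries labelled Double-KO and between -0.35 and 0.24 with SnxB at 24h. The lowest edgeR adjusted p values there were 0.0762 and 0.0586. Slc39a11 fell in DMSO from 16h to 24h (log2 fold change -0.40, SE 0.0573, edgeR adjusted p = 0.00210). Slc30a5 was called lower with SnxB at 24h with replicates blocked (-0.18, edgeR adjusted p = 0.0341, 0.0282 to 0.202 over all alternatives) and by DESeq2 (-0.18, DESeq2 adjusted p = 0.0455), and at 16h without DMSO 16h replicate 1 (-0.25, edgeR adjusted p = 0.0210, 0.0210 to 0.249 over all alternatives). Slc39a13 was called lower in libraries labelled Double-KO than in those labelled CDK19-KO without Double-KO replicate 3 (-0.44, edgeR adjusted p = 0.0478, 0.0478 to 0.277 over all alternatives). Slc39a11 was called higher in that comparison without CDK19-KO replicate 1 and Double-KO replicate 3 (0.59, edgeR adjusted p = 0.0164, 0.0164 to 0.821 over all alternatives), and had 0.43, edgeR adjusted p = 0.0514, 0.0514 to 0.823 over all alternatives against WT.

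The 2 experiments share no library, so their calls can be set side by side. Of the 8 genes called in libraries labelled Double-KO against WT and the 14 called with SnxB at 24h, 5 were called in both, which is 62.5% and 35.7% of the lists. Of the 14261 genes of any kind tested in both experiments, 941 were called in both, or 36.8% and 23.0% of the calls, and 613 of them (65.1%) in opposite directions. Slc39a4, Heph, Slc39a9 and Slc31a1 were higher in libraries labelled Double-KO and lower with SnxB, and Cybrd1 was lower in both. Slc11a2, Slc30a10 and Slc39a14, the 3 genes that fell most with SnxB at 24h, had log2 fold changes of 0.11, 0.17 and 0.04 in libraries labelled Double-KO, with none called. Differences between the experiments in kit, duration and kind of perturbation cannot be told apart, and no test across them was made.

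Without Double-KO replicate 3, 7 of the 33 genes were called against WT (15.4% of all genes), 6 higher and 1 lower, with Slc40a1 gained and Cybrd1 and Slc39a8 lost. Against libraries labelled CDK19-KO the count was 10 beside 24% of all genes, with Slc40a1, Tfrc, Slc30a1 and Slc39a13 gained and Cybrd1 and Slc39a9 lost. Without CDK19-KO replicate 1, CDK19-KO against WT gave 0 calls of 33, where 3.27% of all genes were called. Without both libraries, an alternative chosen after seeing the data, CDK8-KO gave 4 calls (Slc39a4 and Slc40a1 higher, Mt2 and Slc30a4 lower) beside 8.27% of all genes, and Double-KO 8 beside 19%.

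Other genes of metal handling were read from 2 lists. Of 32 genes of iron and haem, 27 were tested in the genotype experiment, where 5 were higher and 2 lower in libraries labelled Double-KO against WT. Of 13 genes of copper and zinc, 12 were tested and 3 were higher, where 17.3% of all genes were called. The haem exporter Flvcr1 rose (log2 fold change 1.12, SE 0.216, edgeR adjusted p = 0.00526), and so did the haem and folate carrier Slc46a1 (log2 fold change 0.97, SE 0.258, edgeR adjusted p = 0.0243), the haem-degrading enzyme Hmox1 (log2 fold change 0.87, SE 0.265, edgeR adjusted p = 0.0412) and the zinc-sensing receptor Gpr39 (log2 fold change 0.70, SE 0.126, edgeR adjusted p = 0.00357). Tfr2, a sensor of transferrin-bound iron, was lower, with 5, 11 and 13 reads in WT, 1, 0 and 1 in CDK8-KO and 0, 0 and 1 in libraries labelled Double-KO, too few for a fold change. In CDK8-KO the metalloreductase Steap1 rose (log2 fold change 0.82, SE 0.163, edgeR adjusted p = 0.0159) and Tfr2 was called lower as well, where 5.15% of all genes were called. In libraries labelled CDK19-KO none was called with edgeR, where 5 and 1 genes of the lists had an unadjusted p under 0.05, as did 10.8% of all genes.

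With SnxB at 16h 1 of 26 tested genes of iron and haem was called, Hmox1, which fell (log2 fold change -0.83, SE 0.201, edgeR adjusted p = 0.0216), beside 7.75% of all genes. At 24h 3 of 26 were higher and 4 lower, and of 11 genes of copper and zinc 2 were higher and 1 lower. These counts were near the 27.5% of all genes called at that time. Hmox1 was again lower (log2 fold change -1.33, SE 0.222, edgeR adjusted p = 0.000780), having risen in libraries labelled Double-KO. Ncoa4, the receptor that sends ferritin to lysosomes for breakdown, fell (log2 fold change -1.08, SE 0.140, edgeR adjusted p = 0.000131), as did the copper pump Atp7a (log2 fold change -0.96, SE 0.160, edgeR adjusted p = 0.000780). Mt4, another metallothionein, rose (log2 fold change 1.46, SE 0.379, edgeR adjusted p = 0.0115) from 21, 6 and 13 to 33, 31 and 41 reads, and Steap4 rose (log2 fold change 1.14, SE 0.389, edgeR adjusted p = 0.0417) from 3, 4 and 10 to 12, 14 and 10 reads, so both folds rest on few reads.

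Of the regulators, Mtf1 rose slightly in libraries labelled Double-KO (log2 fold change 0.28, SE 0.0874, edgeR adjusted p = 0.0465) and had a log2 fold change of -0.14 with SnxB at 24h (edgeR adjusted p = 0.182). Aco1 was not called, with 0.05 in libraries labelled Double-KO (edgeR adjusted p = 0.852) and 0.01 at 24h (edgeR adjusted p = 0.932). Ireb2 was not called either, with 0.14 (edgeR adjusted p = 0.394) and -0.23 (edgeR adjusted p = 0.0848). Epas1, which encodes the hypoxia factor known to drive Slc11a2 and Cybrd1 in enterocytes, was named after its values were seen, and had -0.18 at 24h (edgeR adjusted p = 0.0679). Trf, Hamp, Bmp6, Hephl1, Ftmt and Mt3 had too few counts to be tested in either experiment (0 to 11 reads per genotype library and 0 to 7 per Senexin library). Cp, with 0 to 4 reads, and Tmem163, with 0 to 13, were not tested in the Senexin experiment.

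In bulk RNA fewer cells of a type and less RNA per cell cannot be told apart, so markers of cell types were read beside the metal genes. Markers of Paneth cells, which hold zinc in their granules, were called in both experiments. All 8 were higher in CDK8-KO (5.15% of all genes called) and in libraries labelled Double-KO (17.3%), with sums of 25636, 28459 and 21455 in WT, 87352, 67028 and 65309 in CDK8-KO, 27495, 28094 and 23109.8 in libraries labelled CDK19-KO and 42269.7, 85462 and 69369 in libraries labelled Double-KO, where Itln1 or Lyz1 was most abundant. With SnxB 3 of 8 were lower at 16h and 6 at 24h, where 7.75% and 27.5% of all genes were called. The sums, led by Defa24, were 68874, 95671 and 90498 in DMSO and 61997, 67184 and 52353 in SnxB at 16h, and 104434, 98878 and 97215 and 59018, 51333 and 44237 at 24h. The sums of libraries labelled CDK19-KO overlapped those of WT. No Paneth marker was at 0 in any library.

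The other lists are read against the same shares of all genes, 17.3% in libraries labelled Double-KO and 27.5% with SnxB at 24h. Of 4 stem cell markers, led by Olfm4, 3 were lower in libraries labelled Double-KO, with sums of 38535, 36659 and 33524 in WT, 35578, 49018 and 29829.8 in CDK8-KO, 45008, 72901 and 62344 in libraries labelled CDK19-KO and 27091, 26846 and 23725 in libraries labelled Double-KO, and 1 of 4 fell with SnxB at each time. Of 4 distal small intestinal markers, 3 were tested and all 3 were higher in libraries labelled Double-KO, with sums of 944, 1048 and 927 in WT and 2193, 1765 and 1758 in libraries labelled Double-KO, led by Slc51a. None of 3 proximal markers was called there. Goblet cell markers gave 2 higher of 7 in libraries labelled Double-KO, and 4 higher and 1 lower with SnxB at 24h. Of 6 enteroendocrine markers 4 were higher with SnxB at 24h and none was called in libraries labelled Double-KO, and of 4 tuft cell markers 2 were lower in libraries labelled Double-KO and 3 higher with SnxB at 24h. The part of these cell types in the changes of metal genes was not tested.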

How the data were processed

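The deposited counts per Ensembl gene (release 93) were made by the authors with STAR from single-end reads of 50 bases on GRCm38.p6, version 2.6.0c by the processing notes, with another letter in the methods. Column 4 of each table was used. Its strand held 49.6 to 49.7% of genotype reads, so those libraries are in effect unstranded, and 87.9 to 90.5% of Senexin reads. Reads not counted in that column stayed out of library sizes (63.1 to 65.2% and 21.5 to 25.1%). They include reads on the other strand of genes and reads with several places (19.5 to 22.9% and 7.25 to 8.17%).

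Tests used edgeR 4.0.16 in R 4.3.3 (TMM, filterByExpr, quasi-likelihood, 1 fit per experiment with a mean per group), and tables and figures used Python 3.11.15, pandas 2.3.3 and matplotlib 3.10.9. The 36 genes and the lists were chosen with earlier results of these data known. Values in every library are given for genes called in CDK8-KO or Double-KO against WT or with SnxB at 16h or 24h, and always for Mt1, Mt2, Slc30a1, Slc39a4, Slc40a1, Slc11a2, Tfrc, Fth1 and Ftl1. Of the other metal genes at most 5 called per comparison are named, and Mtf1, Aco1 and Ireb2 always. Replicate numbers come from the labels, which do not say what a number shares. Deviations from the group means of every same-number pair had a correlation over 0.1 for SnxB against DMSO (0.101 to 0.303 at 16h and 0.137 to 0.377 at 24h, with other pairs up to 0.154 and 0.147) and in no other comparison, so blocked values are given for SnxB, and elsewhere only where the block as an alternative changed a call or count. The fit without the block was kept as the one reported. Alternatives were DESeq2 1.42.0 (size factors, and its Wald test), no filter, at least 10 counts in every library, column 2 (both strands), the replicate block, only the groups compared, leaving out each library, and, chosen after seeing the data, leaving out CDK19-KO replicate 1 with Double-KO replicate 3. Both tools were also run on simulated data, whose results are not given here and are used for no call. Enterocyte markers are not reported here.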

Additional observations from a re-analysis of the deposited data

Results flagged for a closer look

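For 4 genes the SnxB effect differed between 24h and 16h by a test of the difference itself, when the replicate number within each time was taken as a block, where 2.1% of all genes were called. The difference in log2 fold change was negative for Slc40a1 (-0.37, edgeR adjusted p = 0.0404, 0.0404 to 0.613 over all alternatives), Slc30a10 (-0.72, edgeR adjusted p = 0.00922, 0.00922 to 0.613 over all alternatives), Slc30a4 (-0.33, edgeR adjusted p = 0.0467, 0.0467 to 0.613 over all alternatives) and Slc11a2 (-0.50, edgeR adjusted p = 0.0348, 0.0348 to 0.896 over all alternatives). Each was lower in SnxB than in DMSO by more at 24h. With the replicate block not set within time, edgeR called 1 of 33 genes for this difference (0.388% of all genes). Without the block edgeR called 0 of 33 genes, with 6 at an unadjusted p under 0.05 (12.9% of all genes), and DESeq2 called 1, Slc30a4 (0.472% of all genes). The adjusted p without the block was 0.275, 0.268, 0.264 and 0.628 in edgeR, in the same order of genes. Whether the difference reflects time in culture or the inhibitor was not tested.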

How the results depend on the processing

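Of the log2 fold changes of the 22 genes described above, recomputed without leaving out a single library, 724 kept direction and side of the threshold, 40 gained a call, 23 lost one and 6 changed sign. When 1 library was left out, 470 kept both, 11 gained a call, 89 lost one and 30 changed sign. The sign changed only for values that were not called. The cause was not tested for any of these changes. Every scaling alternative kept the median of all genes within 0.02 of its value.

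The share of all genes called in the same fit is given in parentheses after each count. With no filter, where 35 of the 36 genes were tested, the number called was 2 (4.26%) in CDK8-KO and 7 (9.71%) in Double-KO against WT, 2 (1.2%) in Double-KO against CDK8-KO, 10 (13.8%) in Double-KO against CDK19-KO and 3 (1.9%) in the test of the sum of the single losses. It was then 9 (4.97%) with SnxB at 16h, 17 (15%) at 24h, 1 (0.426%) for the difference between the times and 8 (6.55%) between the DMSO groups. With the replicate block it was 2 (4.54%) in CDK8-KO, 12 (14.8%) with SnxB at 16h, 18 (36.9%) at 24h, 1 (0.388%) for the difference between the times and 11 (21.2%) between the DMSO groups. For the 33 genes with SnxB, the block within time changed no other call than those given above. Blocked values of the other metal genes and of the markers are not given. In the genotype comparisons same-number pairs had r from -0.193 to 0.219 and other pairs up to 0.452. Between the DMSO groups same-number pairs had r of 0.366, -0.050 and 0.284 for replicates 1, 2 and 3, and other pairs up to 0.120. Whether libraries of 1 number share more than the number there was not tested. DESeq2's Wald test gave 2 (8.45%) in CDK8-KO, 1 (2.64%) in Double-KO against CDK8-KO, 9 (28.2%) in Double-KO against CDK19-KO, 2 (3.18%) in the test of the sum, 7 (9.72%) with SnxB at 16h, 1 (0.472%) for the difference between the times and 7 (14.8%) between the DMSO groups. A fit of only the groups compared gave 3 (6.26%) in CDK8-KO, 7 (18.6%) in Double-KO against WT, 6 (19.2%) in Double-KO against CDK19-KO, 4 (4.86%) with SnxB at 16h, 17 (30.7%) at 24h and 1 (2.57%) between the DMSO groups. Without both CDK19-KO replicate 1 and Double-KO replicate 3, chosen after seeing the data, 4 (8.27%) were called in CDK8-KO and 1 (4.6%) in the test of the sum, Slc39a4 (0.93, edgeR adjusted p = 0.0448, 0.0248 to 0.396 over all alternatives).

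Leaving out 1 library at a time gave 0 to 1 calls in CDK8-KO against WT, 3 to 7 in Double-KO against WT, 0 to 3 in Double-KO against CDK8-KO, 5 to 10 in Double-KO against CDK19-KO and 0 to 2 in the test of the sum. It gave 1 to 13 with SnxB at 16h, 9 to 15 at 24h and 1 to 10 between the DMSO groups. The share of all genes is given above only without Double-KO replicate 3 or CDK19-KO replicate 1, so these ranges cannot be set beside all genes. For CDK19-KO against WT and for the difference between the times edgeR gave 0 in each case, as with all libraries, where the counts at an unadjusted p under 0.05 were 4 and 6 and DESeq2 called 0 and 1.

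In Double-KO against WT the log2 fold change of Fth1 was 0.0928 without both doubted libraries and -0.09 with them, and that of Slc11a2 was -0.0286 with the replicate block and 0.11 without it. Slc39a1, at -0.01, was at 0.0065 with DESeq2's size factors, 0.0498 with column 2, 0.0066 with DESeq2 and 0.0008 with only the groups compared. Without 1 library at a time, values that changed sign spanned these ranges. In CDK8-KO they were -0.32 to 0.47 for Slc11a2, -0.0798 to 0.26 for Slc30a1, -0.88 to 0.25 for Slc30a10, -0.0184 to 0.22 for Slc30a9, -0.0101 to 0.0652 for Slc31a1, -0.0346 to 0.0511 for Slc39a1 and -0.0216 to 0.29 for Tfrc. In Double-KO they were -0.27 to 0.093 for Fth1, -0.20 to 0.56 for Slc11a2, -0.67 to 0.54 for Slc30a10, -0.14 to 0.0151 for Slc30a4, -0.0315 to 0.023 for Slc39a1, -0.20 to 0.20 for Slc39a14 and -0.0976 to 0.42 for Tfrc. With SnxB they were -0.0203 to 0.15 for Ftl1, -0.20 to 0.0038 for Slc30a7 and -0.0767 to 0.0129 for Slc40a1 at 16h, and -0.16 to 0.0237 for Slc30a1 at 24h.

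Each group had 3 libraries, and many calls were lost or gained when 1 library was left out, which also leaves fewer libraries to test. Gene-level counts give neither protein nor metal content, and the metal in the medium was not in the labels. Cdk8 counts did not drop in any knockout group, so they do not check the loss of Cdk8. Cdk19 counts were at the WT level in 2 libraries labelled with a Cdk19 edit and lower in the others. Differences between clones and the edit itself cannot be told apart. The inhibitor was read at 2 times at 1 dose, in libraries of another kind than the knockouts. Where a library holds as few as 2 reads, as for Slc30a3 in Double-KO replicate 1, depth limits the size of the change that can be given.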
